A study of Mus musculus with 12 samples.

Results

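The genes described are 8 Kruppel-like factors (Klf2, Klf3, Klf4, Klf6, Klf7, Klf9, Klf10 and Klf13) and the paired antiproliferative genes Tob1 and Tob2, measured in mouse regulatory T cells (Treg). They were taken as every non-control probe whose gene name in the scanner files is 1 of these symbols, which gave 12 probes for 10 genes, of 55681 distinct probes and 18545 genes tested. Klf13 had 3 probes and each other gene had 1. The 10 probes that stand for the genes were well above background on all 12 arrays.

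RNA of sorted splenic Treg was hybridised to 12 single-colour Agilent arrays, 3 per group. The groups were CD83cKO Treg (a conditional knockout of Cd83, KO) after 3 h of stimulation with antibodies to CD3 and CD28, non-activated CD83cKO Treg (0 h), CD83 wild-type (WT) Treg after 3 h of the same stimulation, and non-activated WT Treg. The series title places the study in Foxp3+ T cells, and CD83 is a surface protein of the immunoglobulin superfamily. All mice were female C57BL/6. WT mice were 9 weeks old. KO mice were 10 weeks old for replicates 1 and 2 and 21 weeks old for replicate 3 at each time. The labels name no Cre driver, and 6 mice are listed for the 12 arrays with no array tied to a mouse, so p-values that treat arrays as independent measure the spread between these arrays. The KO arrays shared 1 of the 3 slides and each WT time had a slide to itself, so genotype cannot be told apart from slide, nor time from slide in WT.

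Kruppel-like factors are zinc finger transcription factors that bind GC-rich and CACCC-type sequences and can activate or repress transcription. In resting T cells Klf2 keeps cells quiescent and maintains genes of lymphocyte recirculation, and several other members of the family restrain or accompany the entry into the cell cycle. Tob1 and Tob2 belong to the BTG/TOB family, whose proteins recruit the CCR4-NOT deadenylase to mRNAs and slow proliferation, and Tob1 is known as a brake on T cell activation.

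Promoter sequences were taken from RefSeq (GRCm38.p6) for 9 of the 10 genes, all but Klf10. Over 12 arrays Klf2 did not pass the test after stimulation, Klf6 and Tob2 rose in both genotypes, and Klf4 passed in WT alone. The 250 bases before the transcription start are shown for these genes. They are read 5′ to 3′ on the strand of the gene. Capitals mark matches on either strand to the GC box (GGGCGG), the CACCC box (CCACCC) and, in Klf2, a MEF2 site. Adjoining capitals can come from overlapping matches.

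Klf2 (chr8:72318812-72319061, plus strand): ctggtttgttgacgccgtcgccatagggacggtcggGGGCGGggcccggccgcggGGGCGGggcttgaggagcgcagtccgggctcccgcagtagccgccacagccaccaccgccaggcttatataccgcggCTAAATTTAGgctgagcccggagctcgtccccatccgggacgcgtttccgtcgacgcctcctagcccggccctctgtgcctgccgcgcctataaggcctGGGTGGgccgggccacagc
Klf4 (chr4:55532476-55532725, minus strand): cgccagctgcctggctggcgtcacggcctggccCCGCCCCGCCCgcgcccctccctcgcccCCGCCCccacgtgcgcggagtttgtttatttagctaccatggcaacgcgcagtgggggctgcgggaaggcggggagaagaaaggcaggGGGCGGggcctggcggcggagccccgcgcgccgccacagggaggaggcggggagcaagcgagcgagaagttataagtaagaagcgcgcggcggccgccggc
Klf6 (chr13:5861239-5861488, plus strand): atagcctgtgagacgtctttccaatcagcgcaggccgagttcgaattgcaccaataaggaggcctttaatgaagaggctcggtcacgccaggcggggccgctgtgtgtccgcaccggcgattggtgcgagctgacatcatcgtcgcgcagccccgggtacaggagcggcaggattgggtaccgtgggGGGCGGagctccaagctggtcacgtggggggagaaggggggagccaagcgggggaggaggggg
Tob2 (chr15:81858327-81858576, minus strand): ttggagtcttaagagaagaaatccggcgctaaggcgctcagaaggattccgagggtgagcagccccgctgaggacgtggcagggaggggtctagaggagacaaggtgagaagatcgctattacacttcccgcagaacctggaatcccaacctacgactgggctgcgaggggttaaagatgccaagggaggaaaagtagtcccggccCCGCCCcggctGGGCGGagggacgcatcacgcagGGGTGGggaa

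The GC box letters were found in 8 of the 9 member promoters, all but that of Klf9, against 32.7% of 32851 promoters of the same length. The CACCC box was found in 6 of the 9 (Klf2, Klf3, Klf7, Klf13, Tob1 and Tob2), against 28.1% of all promoters. A MEF2 site, the element bound by the factors downstream of the kinase ERK5 (Mapk7), was found in Klf2 alone among the 9, against 2.92% of all promoters. The letters TGACG, 1 arm of the cyclic AMP response element, were in 5 of the 9 (Klf2, Klf4, Klf9, Klf13 and Tob1) and in 17.8% of all promoters, and the whole element TGACGTCA was in 0 of the 9. The AP-1 letters TGANTCA were in Klf9 only (6.75% of all promoters), the TATA box letters TATAAA in Tob1 only (12.4%), and neither the NR4A element AAAGGTCA (1.34%) nor a CArG box (1.47%) was in any of the 9. GC content of the 9 windows ran from 59.2% to 78.4%, so the counts of GC-rich letters and the base composition describe the same windows. These matches describe letters only, and binding was not measured.

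Levels are given as normalized log2 signal, that is the log2 of the processed intensity minus the 75th percentile of its array over the probes above background on all arrays. A value of 0 is therefore the level of that percentile and 1 unit is a doubling. Differences are log2 differences with the standard error (SE) of a limma model of the 4 group means, and a gene was called at a Benjamini-Hochberg adjusted p under 0.05 over all 18545 genes. Probes bind with different strength, so levels are compared for 1 probe across arrays and not between genes.

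The 21-week KO arrays differed from the other 10 in cell markers. The averaged level of 8 T cell markers, with the WT average at 0 h set to 0, was -2.73 at 3 h and -1.81 at 0 h for the 21-week mice, against -0.70 to -0.28 for the 10-week KO mice and -0.73 to 0.08 across WT. The mean of 6 plasma cell markers was 6.30 at 3 h and 5.80 at 0 h for them, against -0.28 to 1.64 for the 10-week KO mice and -0.35 to 0.32 across WT. The 10 Treg markers stood at -1.87 and -2.51 for them and between -0.19 and 0.33 on the other KO arrays. This mean includes the Foxp3 probe, which raises it in KO. That probe stood at -6.27, -6.04 and -2.86 in KO at 0 h, against -9.42 to -8.63 in WT at 0 h. Over 12 arrays 9 of the 10 Treg markers lay below 0 in KO against WT at 0 h (median -1.45), and 8 at 3 h (median -0.96). Cd83 had 1.06, 1.07 and 1.92 in KO at 3 h and 0.75, 0.29 and 0.23 in KO at 0 h, against 4.21, 3.69 and 3.65 in WT at 3 h and 2.36, 2.17 and 2.39 in WT at 0 h, so every KO array was below every WT array of its time. Cd4, Cd3e, Il2ra, Ctla4 and Ikzf2 were above background on all 12 arrays. The single Foxp3 probe exceeded background in 6 of 6 KO and 0 of 6 WT samples. The main values of the 10 genes are given with and without the 21-week arrays, while counts of groups that do not overlap are over all 12. In bulk RNA, fewer cells of a type and less RNA per cell cannot be told apart.

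**Figure D1:**
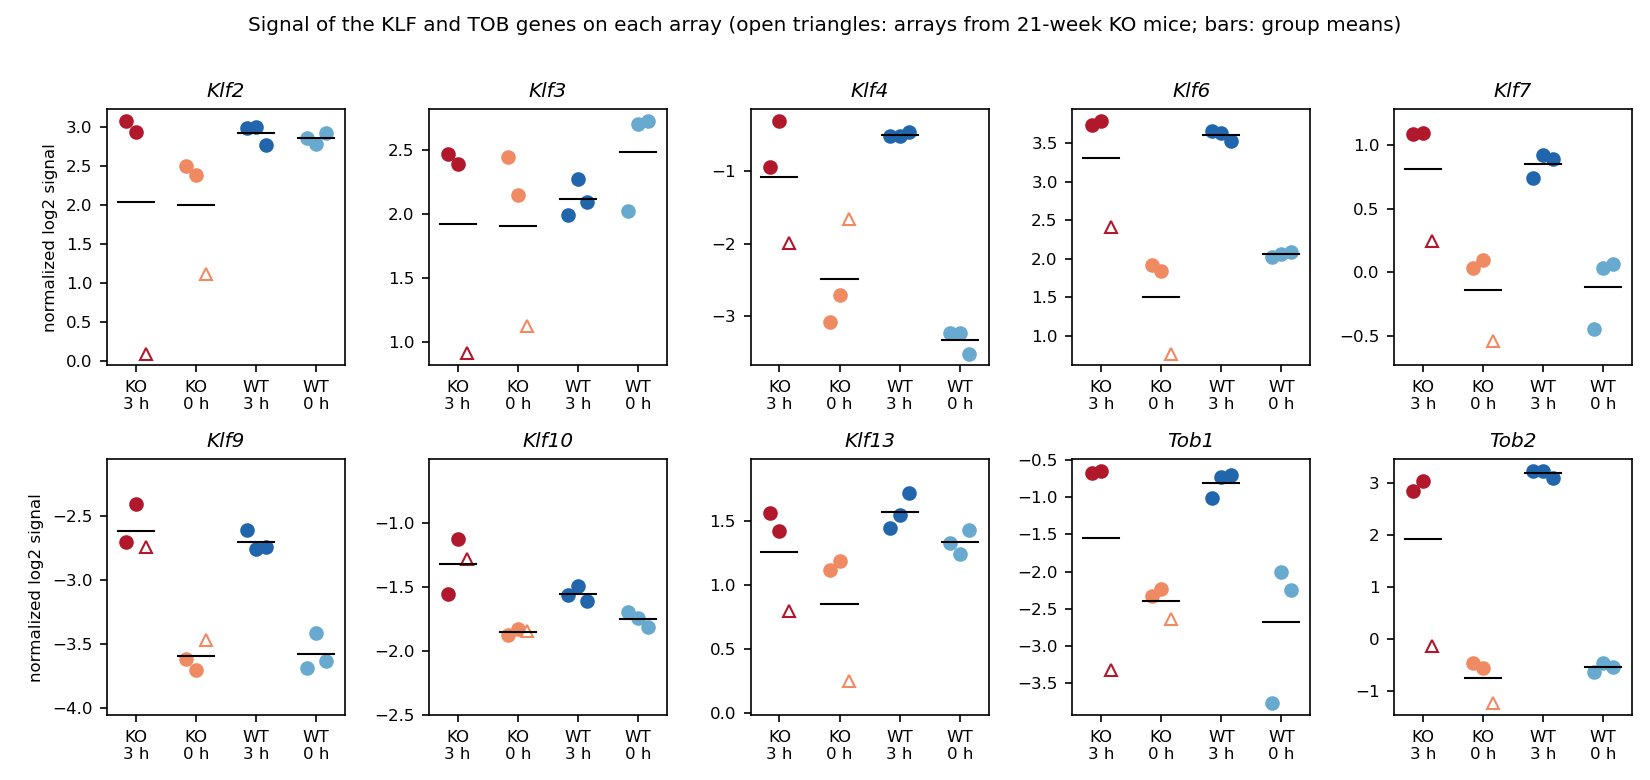
Normalized log2 signal of the 10 genes (1 panel each, y axis) on each of the 12 arrays by group (x axis: KO 3 h, KO 0 h, WT 3 h, WT 0 h). Points are arrays, open triangles the arrays from 21-week KO mice and bars the group means. Klf6 and Tob2 are higher at 3 h than at 0 h in both genotypes, with the 21-week arrays lowest in each KO group.

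Stimulation for 3 h asks how Treg change these regulators when their antigen receptor and CD28 are engaged. In both genotypes 5 of the 10 genes rose and none fell. Klf6, Klf7, Klf9 and Tob2 rose in KO and in WT, Klf10 passed the test in KO, and Klf4 passed it in WT. Over the 10 genes the median change was 0.90 for KO and 0.92 for WT, beside -0.04 for KO and -0.14 for WT over all genes tested. The counts stand against a background of 7.38% of all genes called higher and 9.79% called lower in KO, and 13.3% called higher and 16.6% called lower in WT. Arrays at 3 h and at 0 h did not overlap for 5 of the 10 genes in KO (24.4% of all genes) and for 8 in WT (68.5% of all genes), each time with 3 h higher.

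Tob2, which like Tob1 tethers the deadenylase, had the widest response. Its probe lies at chr15:81679488-81679547 (mm9). Tob2 stood at 2.85, 3.05 and -0.14 in KO at 3 h and at -0.47, -0.56 and -1.24 in KO at 0 h. WT arrays stood at 3.24, 3.24 and 3.1 at 3 h and at -0.64, -0.47 and -0.55 at 0 h. The groups did not overlap in either genotype, and the 21-week array at 3 h was nearer to the 0 h arrays than to the other arrays of its group. Tob2 rose by 2.68 ± 0.681 (SE) in KO, a 6.39-fold rise (limma adjusted p = 0.0250), and by 3.74 ± 0.681 in WT, a 13.4-fold rise (adjusted p = 0.00327). With 1 array left out the KO call held in 7 of 12 refits, with estimates from 2.11 to 3.71. Without the 21-week arrays the KO rise was 3.46 ± 0.115 (adjusted p = 3.3e-06).

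Tob1, the better known T cell brake of the pair, was more scattered. Its probe maps to chr11:94075956-94076015 (mm9). Tob1 stood at -0.67, -0.64 and -3.32 in KO at 3 h and at -2.32, -2.24 and -2.64 in KO at 0 h. Its WT levels were -1.0, -0.73 and -0.70 at 3 h and -3.78, -2.01 and -2.25 at 0 h. The WT groups did not overlap, whereas the 21-week KO array at 3 h was below every KO array at 0 h. The difference was 0.86 ± 0.679 in KO (adjusted p = 0.420) and 1.87 ± 0.679 in WT (adjusted p = 0.0626), so Tob1 passed the test in neither genotype over 12 arrays. With the 21-week arrays left out, Tob1 rose by 1.62 ± 0.496 in KO (adjusted p = 0.0285) and by 1.87 ± 0.405 in WT (adjusted p = 0.00498).

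Klf6, an inducible activator, is on chromosome 13 (probe at chr13:5869371-5869430, mm9). It stood at 3.74, 3.79 and 2.41 in KO at 3 h and at 1.92, 1.84 and 0.77 in KO at 0 h. The WT samples had 3.66, 3.64 and 3.53 at 3 h and 2.02, 2.07 and 2.09 at 0 h. The lowest array at 3 h was above the highest at 0 h in each genotype, and WT replicates lay within a narrow band. Klf6 rose 3.50-fold in KO (1.81 ± 0.388, limma adjusted p = 0.0123) and 2.93-fold in WT (1.55 ± 0.388, adjusted p = 0.0140), and its call held in both genotypes whichever 1 of the 12 arrays was left out.

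Klf4, which restrains the cell cycle in T cells and other lineages in part through the inhibitor p21 (Cdkn1a), had a wide change in WT. The Klf4 probe covers chr4:55540167-55540226 (mm9). Klf4 stood at -0.93, -0.31 and -1.99 in KO at 3 h and at -3.09, -2.71 and -1.66 in KO at 0 h. In WT cells it had -0.51, -0.52 and -0.45 at 3 h and -3.23, -3.23 and -3.52 at 0 h. The WT groups were far apart, and the KO groups overlapped at the 21-week arrays. Klf4 rose by 2.83 ± 0.431 in WT, a 7.12-fold rise (limma adjusted p = 0.00140), and its KO difference of 1.41 ± 0.431, or 2.65-fold, had an adjusted p of 0.05005 that lay just above the threshold. Leaving out the 21-week arrays, Klf4 rose by 2.28 ± 0.219 in KO (adjusted p = 1.5e-04).

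Klf9, a factor induced by glucocorticoids and thyroid hormone in other tissues, had a small rise with little scatter. The Klf9 probe lies at chr19:23240410-23240469 (mm9). Klf9 stood at -2.71, -2.41 and -2.74 in KO at 3 h and at -3.62, -3.71 and -3.47 in KO at 0 h. WT levels were -2.61, -2.76 and -2.74 at 3 h and -3.69, -3.42 and -3.63 at 0 h. All 6 arrays at 3 h were above all 6 at 0 h, the 21-week arrays included. Klf9 rose by 0.98 ± 0.15 in KO (limma adjusted p = 0.00303) and by 0.87 ± 0.15 in WT (adjusted p = 0.00252), and both calls held whichever 1 array was left out.

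Klf7, known from neuronal development and lymphoid leukaemia, roughly doubled. The Klf7 probe lies at chr1:64082265-64082324 (mm9). Klf7 stood at 1.08, 1.09 and 0.25 in KO at 3 h and at 0.04, 0.10 and -0.54 in KO at 0 h. The WT values were 0.74, 0.92 and 0.89 at 3 h and -0.44, 0.03 and 0.06 at 0 h. Arrays of the 2 times did not overlap in either genotype, though in KO the 21-week array at 3 h was only just above the highest at 0 h. Klf7 rose by 0.94 ± 0.269 in KO (limma adjusted p = 0.0386) and by 0.97 ± 0.269 in WT (adjusted p = 0.0226). With 1 array left out the call held in 2 of 12 refits in KO and in 8 of 12 in WT.

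Klf10, a TGF-beta-inducible factor linked to Foxp3 expression in Treg, moved little. The Klf10 probe lies at chr15:38224255-38224314 (mm9). Klf10 stood at -1.56, -1.13 and -1.28 in KO at 3 h and at -1.88, -1.83 and -1.85 in KO at 0 h. WT Treg had -1.57, -1.49 and -1.61 at 3 h and -1.69, -1.75 and -1.82 at 0 h. All arrays at 3 h were above all arrays at 0 h in both genotypes, and the 21-week arrays lay within the KO groups. Klf10 rose by 0.53 ± 0.140 in KO (limma adjusted p = 0.0292), and this call held in 4 of 12 refits with 1 array left out. In WT the difference was 0.19 ± 0.140 (adjusted p = 0.329).

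Klf2, the factor that maintains quiescence and recirculation, did not pass the test with stimulation in either genotype. The Klf2 probe lies at chr8:74845137-74845196 (mm9). Klf2 stood at 3.07, 2.93 and 0.09 in KO at 3 h and at 2.49, 2.38 and 1.11 in KO at 0 h. For WT it was at 2.99, 3.00 and 2.76 at 3 h and at 2.86, 2.78 and 2.92 at 0 h. The WT groups overlapped, and the 21-week arrays were the lowest of their groups by over 1 log2 unit. The difference was 0.04 ± 0.686 in KO (95% interval -1.54 to 1.62) and 0.06 ± 0.686 in WT (-1.52 to 1.64), so changes well over 2-fold in either direction lie within the intervals. On the other 10 arrays Klf2 rose by 0.57 ± 0.122 in KO (limma adjusted p = 0.00651) and differed by 0.06 ± 0.0993 in WT (adjusted p = 0.619).

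Klf3, a repressor that acts through the corepressor CtBP, and Klf13, an activator of the chemokine gene Ccl5 in late T cell activation, were not called with stimulation either. Klf3 stood at 2.47, 2.39 and 0.91 in KO at 3 h and at 2.44, 2.15 and 1.12 in KO at 0 h. WT arrays had 1.99, 2.27 and 2.09 at 3 h and 2.02, 2.71 and 2.72 at 0 h. The arrays of the 2 times overlapped in both genotypes, with differences of 0.02 ± 0.451 in KO and -0.37 ± 0.451 in WT.

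The brightest Klf13 probe stood at 1.56, 1.43 and 0.80 in KO at 3 h and at 1.12, 1.19 and 0.25 in KO at 0 h. The WT levels were 1.45, 1.55 and 1.72 at 3 h and 1.33, 1.24 and 1.43 at 0 h. The WT groups were separate by a small margin and the KO groups overlapped, with differences of 0.41 ± 0.274 in KO (adjusted p = 0.334) and 0.24 ± 0.274 in WT (adjusted p = 0.556). The other Klf13 probes were not called in any comparison, and their KO differences were 1.25 and 0.26, against WT differences of 0.03 and -0.12. The probe at 0.26 in KO and -0.12 in WT has coordinates that run opposite to the strand of Klf13, and whether it reads the Klf13 transcript was not tested. The probe at 1.25 was above background on 10 of 12 arrays.

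**Figure D2:**
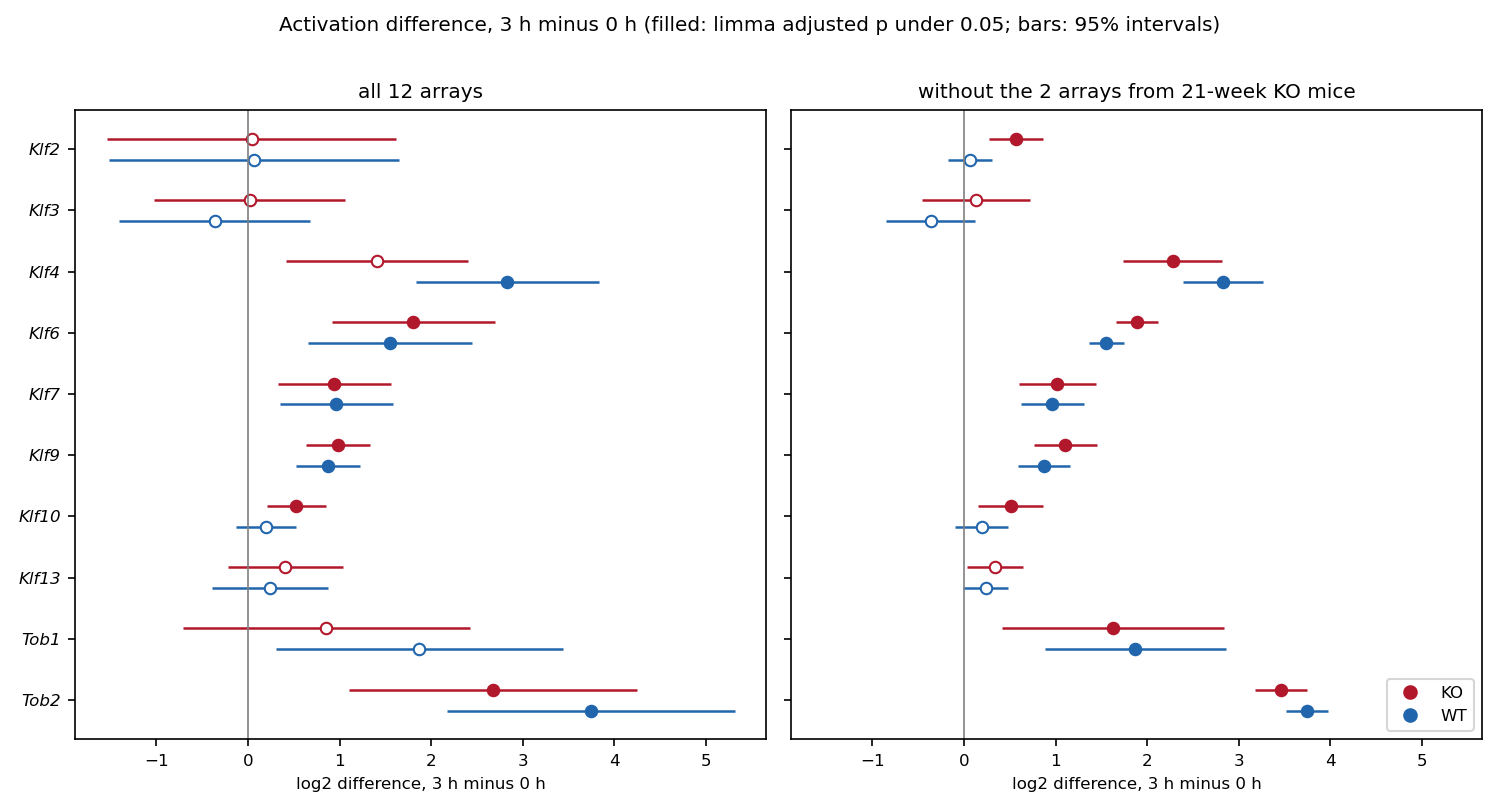
Log2 difference of 3 h against 0 h (x axis) for the 10 genes (y axis) in KO and WT, over all 12 arrays and without the 2 arrays from 21-week KO mice. Points are limma estimates, bars 95% intervals and filled points adjusted p under 0.05. Filled points number 5 in each genotype over 12 arrays, and 8 in KO and 6 in WT without the 21-week arrays.

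Without the 21-week arrays 8 of the 10 genes rose in KO and 6 in WT, none fell, and the median differences were 1.06 in KO and 0.92 in WT. The background was higher as well, since 20.3% of all genes were then called higher in KO and 24.2% in WT. In KO the rise was then 1.89 for Klf6, 1.02 for Klf7, 1.11 for Klf9 and 0.51 for Klf10, while Klf3 (0.13) and Klf13 (0.34) were not called. Fitted on the 6 KO arrays alone, which share 1 slide, the KO differences were the same by construction. There 0 of the 10 passed the adjusted threshold, the lowest adjusted p being 0.115 for Klf9. Few genes passed in that fit at all, 104 of 18545, of which 43 were higher. With the 21-week age as a term, a setting chosen after seeing the data, 7 rose in KO, Klf4 and Klf13 in addition (17.9% of all genes called higher), and 6 in WT, Tob1 in addition (22.3%). On the KO slide alone with that term Klf6, Klf7, Klf9 and Tob2 passed, 4 of the 10 (5.85% of all genes called higher). With no shift between arrays 0 of the 10 were called in KO and 2, Klf4 and Tob2, in WT. Of all 18545 genes 268 were then called higher in KO and 1164 in WT. Other cell types moved with time as well: the mean of 12 monocyte and macrophage markers, relative to the WT mean at 0 h, ran from -0.32 to 0.82 in KO at 3 h and from 1.98 to 2.41 in KO at 0 h, against -2.33 to -1.77 in WT at 3 h and -0.36 to 0.41 in WT at 0 h. Of these 12 markers 9 fell with stimulation in each genotype, none of them was dim on all arrays, and their part in the changes of the 10 genes was not tested.

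KO against WT asks whether loss of CD83 alters these regulators. None of the 10 genes was called in limma at 0 h or at 3 h, where 2.08% and 1.45% of all genes were called, and none had an unadjusted p under 0.05 at either time. The median difference was -0.15 at 0 h and -0.30 at 3 h, beside -0.03 and 0.04 over all genes. Of the 10 genes 8 lay below 0 at each time, and 6 at 0 h and 3 at 3 h without the 21-week arrays. KO and WT arrays did not overlap for 5 of the 10 at 0 h (Klf2, Klf6, Klf10 and Klf13 lower in KO, Klf4 higher), beside 31.6% of all genes, and for 1 at 3 h (Tob2, lower in KO), beside 19.2% of all genes.

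Klf2 had the largest difference below 0 at 0 h, with 2.49, 2.38 and 1.11 in KO against 2.86, 2.78 and 2.92 in WT. Every KO array was below every WT array, the 21-week array by the most. The T cell markers on the same KO arrays stood at -0.38, -0.28 and -1.81, against -0.08 to 0.08 in WT, and their part was not tested. The difference was -0.86 ± 0.686 (95% interval -2.44 to 0.72, limma adjusted p = 0.590). It was -0.42 ± 0.111 without the 21-week arrays (adjusted p = 0.0621). At 3 h the Klf2 difference was -0.88 ± 0.686 (adjusted p = 0.616), and it was 0.08 ± 0.111 without the 21-week arrays, where both 10-week KO arrays lay within or just above the WT range.

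Klf4 went the other way at 0 h, with -3.09, -2.71 and -1.66 in KO against -3.23, -3.23 and -3.52 in WT. Each KO array was above each WT array, and the 21-week array was the highest. The difference was 0.84 ± 0.431 (95% interval -0.15 to 1.84, adjusted p = 0.393), and 0.43 ± 0.200 without the 21-week arrays (adjusted p = 0.209). Klf4 is also expressed in monocytes, and the monocyte and macrophage markers were higher in KO at 0 h, with 10 of 12 called higher. Their mean was 2.24, 2.41 and 1.98 on the 3 KO arrays in the same order, against -0.36 to 0.41 on the WT arrays. The 21-week array, highest in Klf4, was thus the lowest KO array in these markers. Whether they contribute to the Klf4 signal was not tested.

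At 3 h the largest difference was that of Tob2, at -1.27 ± 0.681 (95% interval -2.84 to 0.30, adjusted p = 0.533). Its KO arrays stood at 2.85, 3.05 and -0.14, against 3.24, 3.24 and 3.1 in WT, so that 1 array carried most of the difference. Over the other 10 arrays it was -0.24 ± 0.105 (95% interval -0.50 to 0.02, adjusted p = 0.392). Tob1 stood at -0.74 ± 0.679 with the 21-week arrays and at 0.15 ± 0.452 without them. The T cell markers were lowest on the same 21-week array, at -2.73, and their part in these differences was not tested.

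None of the remaining differences passed the test. Klf3 differed by -0.58 at 0 h and -0.20 at 3 h, and at 0 h Tob1 and Tob2 differed by 0.28 and -0.20. Klf7, Klf9 and Klf10 differed by -0.02, -0.02 and -0.10 at 0 h and by -0.04, 0.09 and 0.24 at 3 h, the 95% interval of Klf9 running from -0.37 to 0.33 at 0 h and from -0.26 to 0.43 at 3 h. Klf6 and Klf13 differed by -0.55 and -0.48 at 0 h and by -0.29 and -0.31 at 3 h. Several signs turned when the 21-week arrays were left out: at 3 h Klf6 stood at 0.16, Klf7 at 0.24 and Klf3 at 0.31, and at 0 h Klf7 stood at 0.18 and Tob2 at 0.04. Klf9 and Klf10 then stood at -0.09 and -0.10 at 0 h and at 0.15 and 0.21 at 3 h, and Klf13 at -0.18 at 0 h and -0.08 at 3 h. Without the 21-week arrays 0 of the 10 were called at 0 h (6.63% of all genes) and 0 at 3 h (1.98% of all genes), with medians of -0.09 and 0.15. The differences of the 10 then ran from -0.42 (Klf2) to 0.43 (Klf4) at 0 h and from -0.24 (Tob2) to 0.31 (Klf3) at 3 h.

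**Figure D3:**
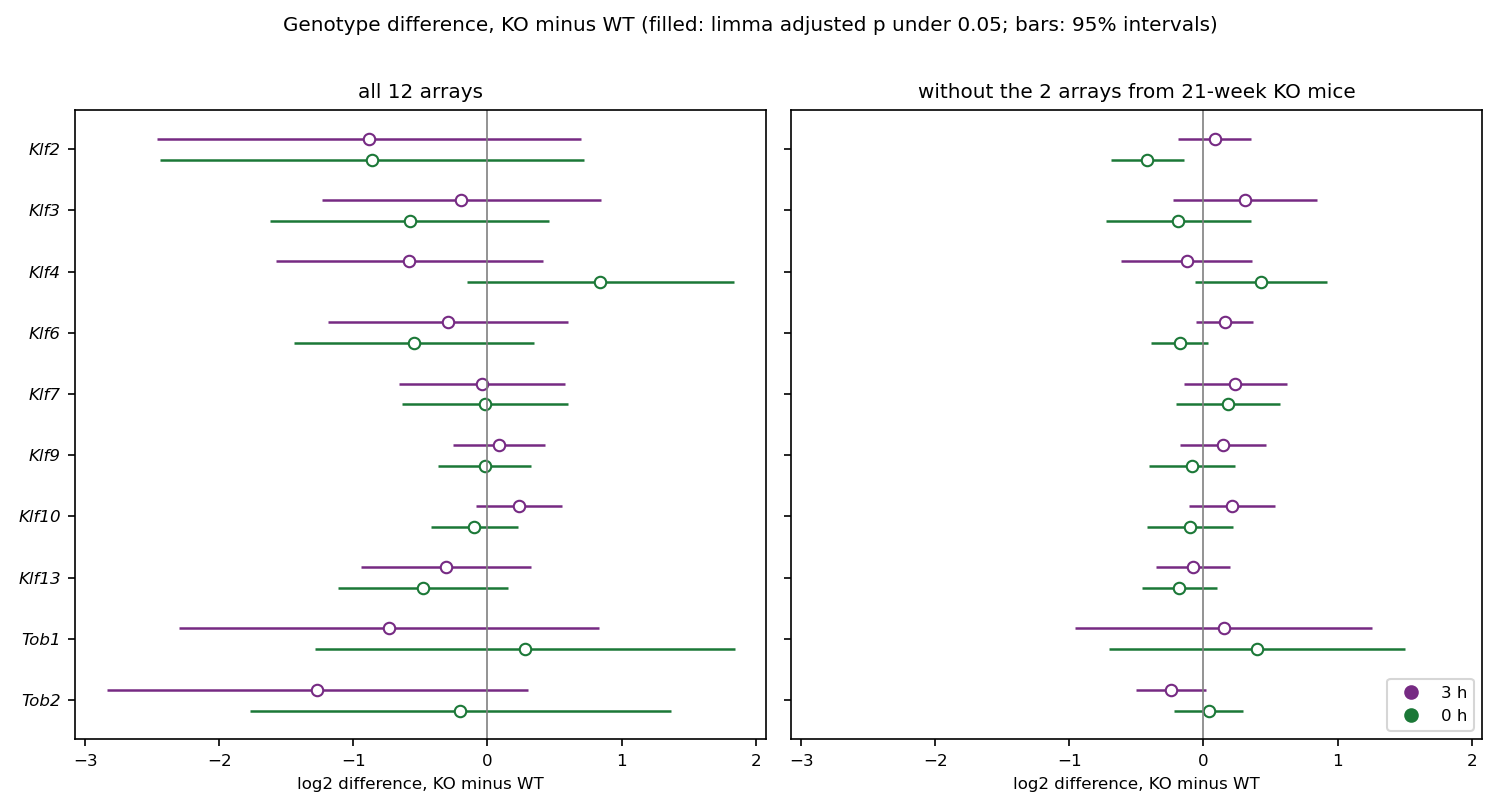
Log2 difference of KO against WT (x axis) for the 10 genes (y axis) at 3 h and 0 h, over all 12 arrays and without the 2 arrays from 21-week KO mice. Points are limma estimates and bars 95% intervals. No point is filled, since no adjusted p was under 0.05, and the interval of Klf2 at 0 h is the 1 that leaves out 0 in the panel without the 21-week arrays.

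Whether the response to stimulation itself differed by genotype was tested as KO change minus WT change. This was called for 0 of the 10 genes and for 0% of all genes in limma, with 688 of 18545 genes (3.71%) at an unadjusted p under 0.05. In limma Klf4 was the 1 member with an unadjusted p under 0.05, at -1.43 ± 0.610 (95% interval -2.83 to -0.02, adjusted p = 1), the KO change being the smaller. The Klf4 value was -0.56 ± 0.283 without the 21-week arrays (adjusted p = 0.518). Tob2 and Tob1 stood at -1.07 and -1.01 with these arrays and at -0.28 and -0.25 without them. Klf2 stood at -0.02 ± 0.970 with them and at 0.50 ± 0.157 without them, where its limma adjusted p was 0.455. A different response of any member in KO was therefore not shown, and the intervals over 12 arrays still allow more than a 2-fold difference for 7 of the 10, all but Klf7, Klf9 and Klf10.

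**Figure D4:**
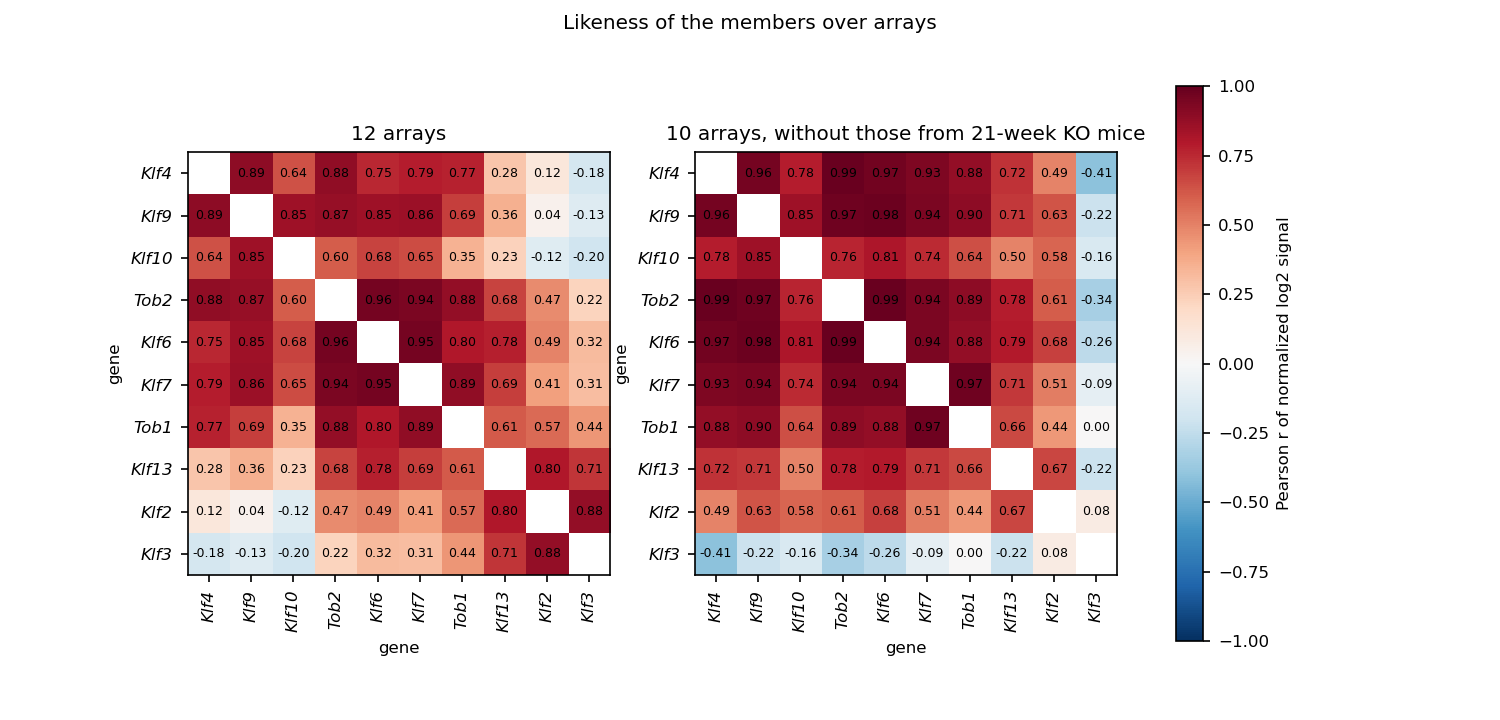
Pearson correlation of normalized log2 signal between the 10 genes over 12 arrays and over the 10 arrays that leave out the 21-week KO mice. Colour and number give r. Klf2 and Klf3 pair with each other over 12 arrays (0.88) and not over 10 (0.08), while Klf6 and Tob2 stay close in both (0.96 and 0.99).

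Likeness of pattern over the arrays is given as Pearson r, as a description, since the arrays share groups, slides and the 21-week samples. Klf6 and Tob2 were the closest pair of members (r = 0.96 over 12 arrays and 0.99 over the 10 without the 21-week arrays). Chosen over 12 arrays, with the r over 10 arrays as the later value, the nearest member of Klf7 was Klf6 (0.95 and 0.94), that of Tob1 was Klf7 (0.89 and 0.97), that of Klf4 was Klf9 (0.89 and 0.96), and that of Klf10 was Klf9 (0.85 and 0.85). Klf2 and Klf3 were nearest to each other over 12 arrays (0.88), but over 10 arrays r was 0.08. Klf13 was nearest to Klf2 over 12 arrays (0.80 and 0.67). Over the 10 arrays the nearest member was another for Klf7 (Tob1, 0.97), Klf4 (Tob2, 0.99), Klf9 (Klf6, 0.98), Klf13 (Klf6, 0.79) and Klf2 (Klf6, 0.68).

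Beyond the members, the 5 genes most like Klf2 over 12 arrays were Ets1, a transcription factor of resting lymphocytes (r = 0.99), the glycosyltransferase gene Galnt6 (0.99), the histone deacetylase gene Hdac1 (0.99), the polarity gene Pard6g (0.99) and Jak1, a kinase of cytokine receptors (0.98). Over the 10 arrays without the 21-week mice these were 0.87, 0.87, 0.75, 0.71 and 0.67. The genes most like Klf10 were Rgp1 (0.93), the stress factor Ddit3 (0.92), Rgs9bp (0.92), an unnamed intergenic RNA probe (0.92) and Fam171b (0.91), and without the 21-week arrays their r ran from 0.89 to 0.95. Some of these values lay near background. In KO at 0 h the lowest signals above background were -7.46, -7.53 and -6.76 on the 3 arrays, where Fam171b averaged -8.18 and the intergenic probe -7.19.

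Genes around the members moved unevenly. Of the other BTG family genes, which share the antiproliferative domain of the TOB proteins, 3 of 4 were tested, and 2 rose and none fell in each genotype. Btg3 rose by 1.15 ± 0.178 in KO and 1.2 ± 0.178 in WT, and Btg2, a p53 target, by 0.61 ± 0.156 in KO and 0.88 ± 0.156 in WT. Btg1 stood at 0.25 in KO and 0.18 in WT. Of the 11 CCR4-NOT genes, which encode the deadenylase that the family recruits, none was called in KO (median 0.41) and 1 rose in WT (median 0.59), the subunit gene Cnot11 (0.92 ± 0.199, adjusted p = 0.00751), whose KO difference was 0.65 (adjusted p = 0.0504). Over the other 10 arrays 7 of these 11 rose and 2 fell in each genotype. In that fit 8566 of all 18545 genes were called in KO (3756 higher) and 10348 in WT (4485 higher).

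Of 18 other genes of the KLF and SP families 11 were tested. In WT 2 rose, Klf11, a close relative of Klf10, by 0.88 ± 0.231 (limma adjusted p = 0.0176) and Sp5 at least 2.22-fold (adjusted p = 6.1e-04), where the lower bound is the mean at 3 h over the lowest signal above background of each 0 h array or the probe's own value, whichever is higher. In KO 1 was called, Sp5, whose probe was not well above background on any KO array, so no fold is given. None fell in either genotype and none was called in KO against WT. The largest genotype differences at 0 h were those of Klf1, a red cell factor (2.97 ± 1.22, adjusted p = 0.282), and Klf5 (2.73 ± 0.742, adjusted p = 0.104). Klf1 is 1 of 8 erythroid markers, whose mean ran from 2.32 to 3.09 on the KO arrays at 0 h, against -1.09 to 1.02 on the WT arrays, and their part was not tested.

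Among 7 trafficking genes linked to KLF2, Itgb7, the beta 7 integrin chain, fell with stimulation in KO (-0.97 ± 0.255, adjusted p = 0.0280) and in WT (-1.31 ± 0.255, adjusted p = 0.00447), and no other was called. S1pr1, the egress receptor that KLF2 activates, stood at 0.35 in KO and 0.56 in WT. Without the 21-week arrays 2 rose and 3 fell with stimulation in each genotype. The largest change was then that of Ccr7, a chemokine receptor, which rose by 2.97 ± 0.119 in KO (limma adjusted p = 7.1e-06) and 2.88 ± 0.0972 in WT (adjusted p = 1.1e-06). In that fit 8566 of all 18545 genes were called in KO and 10348 in WT. In KO against WT all 7 lay below 0 at 0 h (median -0.77) and at 3 h (median -0.99) with 0 called. Without the 21-week arrays 2 fell at 0 h, Cxcr3, a chemokine receptor (-0.90 ± 0.135, adjusted p = 0.0118), and Itgb7 (-0.76 ± 0.135, adjusted p = 0.0204), and 1 fell at 3 h, Cxcr3 (-0.69 ± 0.135, adjusted p = 0.0485). Of all genes 6.63% were then called in KO against WT at 0 h and 1.98% at 3 h. The T cell markers lay below 0 in KO against WT as well, 8 of 8 at each time with 0 called, and their part was not tested.

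Of 8 genes upstream of KLF2, Mapk7, which encodes ERK5, rose by 0.74 ± 0.193 in KO and 0.64 ± 0.193 in WT. In WT Mef2a, a MEF2 factor, also rose (0.90 ± 0.194) and Map2k5, the kinase above ERK5, fell (-0.75 ± 0.158), and no other was called in either genotype. Foxo1, which drives Klf2 transcription in T cells, stood at -0.82 in KO against WT at 0 h (adjusted p = 0.521) and fell by 0.36 without the 21-week arrays (adjusted p = 0.0478), where 6.63% of all genes were called.

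Of 6 corepressor genes used by the family, Sin3b rose with stimulation by 0.92 ± 0.198 in KO and 0.93 ± 0.198 in WT. Ctbp2, the partner of Klf3, was the 1 gene of the 8 lists of related genes called in KO against WT at 0 h (2.68 ± 0.465, adjusted p = 0.0199). The Ctbp2 call held without the 21-week arrays (2.21, adjusted p = 0.00858), and at 3 h its difference was 1.53 ± 0.465 (adjusted p = 0.220). At 0 h 2.08% of all genes were called, and 6.63% without the 21-week arrays. Of the monocyte and macrophage markers 10 of 12 were called higher in KO at 0 h (median 2.11), as were 2 of 9 dendritic cell markers (median 2.05). Their part in the Ctbp2 difference was not tested.

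Of 16 other quiescence regulators 4 rose and none fell in each genotype, beside 7.38% of all genes called higher in KO and 13.3% in WT. Cdkn1a, the cell cycle inhibitor p21, rose by 4.75 ± 0.413 in KO (adjusted p = 2.3e-04) and 5.70 ± 0.413 in WT (adjusted p = 6.9e-05). Foxo3 rose by 1.19 in KO and 1.90 in WT, and Foxp1, a factor that keeps naive T cells resting, by 1.01 in KO and 0.81 in WT. Foxj1 rose at least 4.86-fold in KO, where 2 of 3 arrays at 3 h were above background, and at least 12.1-fold in WT. Of 6 activation markers 3 rose in KO (Cd69 by 2.24, Nr4a1 by 3.24 and Egr2 by 1.57) and 2 in WT (Cd69 by 2.08 and Nr4a1 by 3.21), beside the same shares of all genes. Egr1, Myc and Il2ra were called in neither genotype and stood at 0.11, 0.28 and -0.56 in WT. A rise of Cd69 and Nr4a1 was thus measured in both genotypes. None of either list was called in KO against WT at 0 h or 3 h over 12 arrays. Without the 21-week arrays Egr1 was called higher in KO at 3 h (0.70 ± 0.128, limma adjusted p = 0.0392). Foxo1, given above, was then called lower at 0 h, and no other gene of either list was called. In that fit 1.98% of all genes were called at 3 h and 6.63% at 0 h.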

How the data were processed

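The deposited scanner files hold spot intensity on a linear scale, background-subtracted and not normalized between arrays. Their headers name Agilent Feature Extraction 10.7.3.1, and the submitters' processing notes name version 11 and Partek. A table of log2 values deposited by the authors (median 3.89 on every array, scaling otherwise unknown) served as an alternative. Of 62976 spots 59305 were not controls. Spots of a probe were averaged, probes lacking a value on some array (515) were dropped, and 0 were saturated. Between 42.9% and 54.6% of probes were above background (mean 46.4%), so the log2 signal of each array was set relative to its 75th percentile among the 19799 probes above background throughout. That percentile, taken over every probe, was 167.5 to 331.9 in intensity, lowest for the 21-week mice. The number of arrays limits precision.

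A probe was tested if it was above background in every replicate of a group (26261 probes), and each gene was read by its brightest probe. limma 3.58.1 in R 4.3.3 (lmFit, eBayes, two-sided, 1 model of 4 group means) was tested on simulated data. Intervals use 8 residual degrees of freedom, or 6 without the 21-week arrays. The members and lists were chosen with earlier results of these data known. Named genes are the 10 members, each member's nearest member, the 5 genes nearest to Klf2 and to Klf10, Cd83, and from each list up to 4 called genes with the largest statistic per comparison or, where none was called, up to 2 with the largest difference. Btg1, S1pr1, Ccr7, Egr1, Myc, Il2ra and some values of Foxo1, Cnot11 and Ctbp2 fall outside this rule and were chosen after their values were seen. The lists were other KLF and SP family, other BTG family, CCR4-NOT deadenylase, KLF2-linked trafficking, KLF2 upstream, KLF corepressors, quiescence regulators and activation markers, with markers of 11 cell types.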

Additional observations from a re-analysis of the deposited data

How the results depend on the processing

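The counts of called members were 0 in both genotype comparisons and in the difference of activation effects under every setting run, and no called member changed direction. With stimulation in KO (5 called) the count was 0 with no shift between arrays, 3 with no filter on dim probes, 8 without the 21-week arrays, 0 within the slide of the KO arrays, and 2 to 7 with 1 array left out. It was 7 without KO 3 h replicate 3, 3 without KO 3 h replicate 1, without WT 0 h replicate 2 or 3 or without any WT 3 h replicate, and 2 without KO 0 h replicate 1 or 2 or KO 3 h replicate 2. In WT (5 called) it was 2 with no shift between arrays, 8 with array quality weights (7 higher, and Klf3 lower) and 4 to 6 with 1 array left out. The cause of these shifts was not tested, and fewer arrays were used where some were left out. With no shift the median of all genes moved to -0.34 in KO and -0.05 in WT. The number of genes called with stimulation, out of 18545, moved as well. In KO it was 3183 in the main fit, 2461 with no shift and 104 within the slide. In WT it was 5543 in the main fit, 2822 with no shift and 12216 with array quality weights (5344 higher). With 1 array left out it ran from 1800 to 6893 in KO and from 3630 to 7650 in WT. With no filter on dim probes 1915 of 34541 genes were called in KO. Of single member values, 44 lost and 20 gained a call. Slide as a random block could not be fitted, because all KO arrays share 1 slide and each WT group has its own, and limma set its correlation to 0. No paired analysis was possible because replicate numbers here only name arrays and the labels do not say which mouse each array came from. Age ties the 21-week KO arrays of the 2 times, and with it as a term, chosen after seeing the data, 7 were called in KO, 6 in WT and 0 otherwise, or 4 in KO within its slide.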
